A study of Mus musculus with 2 samples.

Results

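The cells described here are conventional CD4 T cells, the CD4+ helper lineage without Foxp3, among CD45+ cells taken from GL261 gliomas of C57BL/6 mice. GL261 is a mouse glioma line that was injected into the brain, and ibudilast is an oral inhibitor of several cyclic nucleotide phosphodiesterases and of the cytokine MIF. Both libraries came from tumour-bearing mice given the line in the same way. In the PBS library the mice received PBS by gavage (the sample label calls this library untreated), and in the ibudilast library they received 20 mg/kg ibudilast by gavage, 5 times a week for 2 weeks. The number, age and sex of the mice behind each library are not given in the sources used here.

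Members were chosen from measured values. A barcode had to hold at least 300 genes and 500 unique molecular identifiers (UMIs), with under 10% of UMIs on mitochondrial genes. It then needed 2 or more UMIs of Cd3d, Cd3e and Cd3g together and 1 or more of Cd4, and no UMI of Foxp3, Cd8a, Cd8b1 or Lef1. C1qa and C1qb had to be under 0.5% of its UMIs, and Mki67 and Top2a together under 3 UMIs. This left 232 of 15234 filtered cells, 121 of 8155 with PBS and 111 of 7079 with ibudilast. The levels of these 12 genes and of their close correlates in the members are therefore fixed by the choice and are no finding. With 1 library per group there is no replicate, so no test was possible. Each ratio below compares these libraries, not the treatments. Its 95% interval is exact and covers counting error only, and it is too narrow where a few cells carry most UMIs of a gene. Where a pair of values is given, the PBS library comes first.

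CD4 helper T cells recognise peptides on MHC class II through the T cell receptor and act mainly through what they secrete or display. Their cytokines and chemokines direct other immune cells, and TNF-family ligands such as CD40 ligand license dendritic cells, B cells and macrophages. In tumours, activated helper cells stand beside Foxp3+ regulatory T cells, which share many surface genes with them. Ccl1 encodes a chemokine ligand of the receptor CCR8, Penk the precursor of enkephalin peptides, and Tnfsf8 the ligand of CD30. These genes, with Cd4 and Cd3e, were given as markers of the cells.

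The label was checked against other T cell genes and against markers of other cell types. A UMI of Trac and a UMI of Trbc1 or Trbc2, the constant regions of the alpha-beta receptor, were both present in 117 of 121 and 102 of 111 members. Markers of gamma-delta and invariant NKT cells summed to 18.5 and 14.8 UMIs per 1000000 UMIs (CPM) and to 17.6 and 21.3 CPM over the summed members. RNA of myeloid cells was present: a UMI of C1qa or C1qb, complement genes of macrophages, was missing from only 2 and 9 members. Markers of macrophages and dendritic cells (23 genes) took a median 0.938% and 1.11% of a member's UMIs, with 0.232% to 8.13% with PBS and 0.174% to 9.0% with ibudilast. The median was 8.76% and 7.81% in cells gated as macrophages. At 4% or more stood 15 and 22 members, so the upper tail was fuller in the ibudilast library. Members under 1% numbered 63 and 52, and most ratios below are also given for them.

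**Figure D1:**
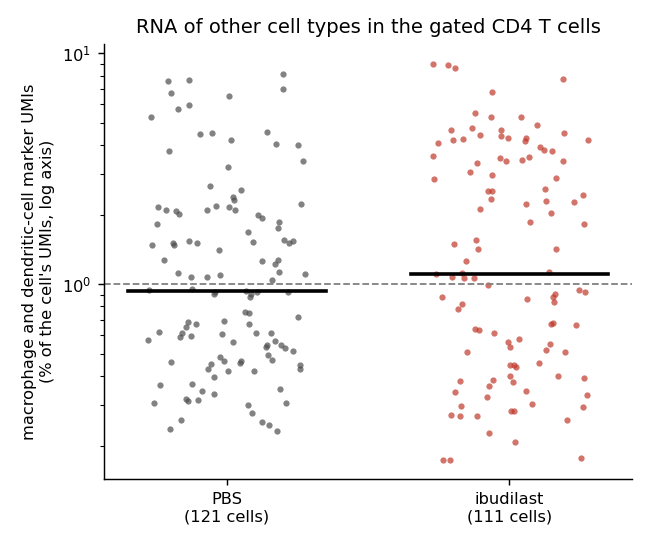
Each point is 1 member; the y axis (log) is the percent of its UMIs on 23 macrophage and dendritic-cell marker genes, the bar is the library median, and the dashed line is at 1%. The medians lie at 0.938% and 1.11%, and 15 PBS and 22 ibudilast cells lie at 4% or above.

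Foxp3 can be missed in a cell that expresses it, so genes that regulatory T cells share were also read. Ikzf2, which encodes the transcription factor Helios, had a UMI in 39.7% and 45.6% of members thinned to 3000 UMIs each. That share was 82.5% and 88.9% in the Foxp3+ gate, 12.5% and 18.4% in CD8 T cells and 3.44% and 4.1% in macrophages. Only 34 and 28 members lacked any UMI of Ikzf2 and of Il2ra, the high-affinity IL-2 receptor chain. Most members thus held RNA of genes that regulatory cells are known for, although Foxp3 had no UMI. A UMI of 1 of 6 NK receptor genes (Ncr1, Klrb1c, Klre1, Klra4, Klra7, Klra8) was found in 32 PBS members (26.4%) and 14 ibudilast members (12.6%). That share was 74.8% and 77.8% in CD8 T cells, 12.2% and 8.7% in the Foxp3+ gate and 6.5% and 11.9% in macrophages. The UMI is thus not particular to NK cells here. The part of these members in the results was not tested, so values without them stand beside the genes they touch.

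Members were a similar share of all filtered cells in both libraries but a smaller share of T cells in the ibudilast library. They were 121 of 8155 PBS cells (1.48%, interval 1.23 to 1.77%) and 111 of 7079 ibudilast cells (1.57%, interval 1.29 to 1.89%), a ratio of 1.06 (0.809 to 1.38). Among cells with 2 or more CD3 UMIs the shares were 7.67% of 1578 and 5.97% of 1859 cells, with a ratio of 0.779 (0.596 to 1.02) that includes 1. Among such cells with under 0.5% C1q UMIs they were 16.1% of 752 and 10% of 1110, a ratio of 0.621 (0.476 to 0.811). With every cell thinned to 3000 UMIs before gating, the share of CD3+ cells was 9.41% and 6.13%, a ratio of 0.651 (0.487 to 0.867). Cells that met every other criterion but had 3 or more Mki67 and Top2a UMIs, genes of dividing cells, were 38 of 159 and 15 of 126, a ratio of shares of 0.498 (0.255 to 0.927). Median depth was 6974 and 7998 UMIs a member, and the members summed to 1078306 and 1080740 UMIs. The libraries shared 19 barcodes, and 0 of them were members.

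Several criteria turn on single UMIs. Of the members, 33 and 40 had exactly 1 Cd4 UMI, while 89 and 129 cells met the rest of the rule with none. C1q UMIs made up 0.25 to 0.5% in 38 and 29 members, and 28 and 17 cells were left out at 0.5 to 0.75%. Exactly 1 Foxp3 UMI kept out 13 and 21 cells, and 1 Lef1 UMI 11 and 13. At 2 Mki67 and Top2a UMIs 13 and 5 cells were inside, and at 3 UMIs 15 and 4 were outside.

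Ccl1 was carried by few members, and at very different amounts (chr11:82176657-82305690, minus strand, mm10). It had 1218 and 210 UMIs in all, 1129.5 and 194 CPM, in 31 and 19 cells. In the PBS library the 5 highest cells held 72.8% of the UMIs and the single highest had 304. In the ibudilast library the 5 highest held 82.4%, and the highest had 97. The ratio was 0.172 (0.148 to 0.199), and it was 0.209 in the members under 1%. Among members thinned to 3000 UMIs, 19.8% and 11.7% had a UMI, against 0.401% and 0.251% of macrophages. The lower level in the ibudilast library thus came with both fewer Ccl1+ cells and lower amounts in the highest ones. It was less far apart once NK receptor cells were also left out, at 0.446, and with dividing cells kept, at 0.419.

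Penk and Tnfsf8 were spread differently. Penk (chr4:4133531-4138819, minus strand) had 238 and 192 UMIs in 17 and 13 cells, and 1 ibudilast cell alone had 141. Its ratio was 0.805 (0.662 to 0.978) over all members, 9.55 in the members under 1%, where that cell lies, and 0.342 without the 5 highest cells of each library, so its direction rests on few cells. Tnfsf8 (chr4:63831308-63861347, minus strand) was carried by more cells, with 287 and 189 UMIs in 54 and 48 cells and a ratio of 0.657 (0.544 to 0.792), 0.692 under 1%. At 3000 UMIs a cell, 34.5% and 28.2% of members had a Tnfsf8 UMI, and so did 10.2% and 7.94% of macrophages. Ccl1 and Penk were found together in 7 PBS and 4 ibudilast cells. Ccl1 and Il10, which encodes a cytokine that restrains inflammation, shared 0 cells in either library, although Ccl1 was in 31 and 19 cells and Il10 in 17 and 18; 0 cells allow a share of up to 2.48% and 2.7% of members. Of the Il10+ cells, 15 and 17 also held Ikzf2, which was in 75 and 77 of all members.

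**Figure D2:**
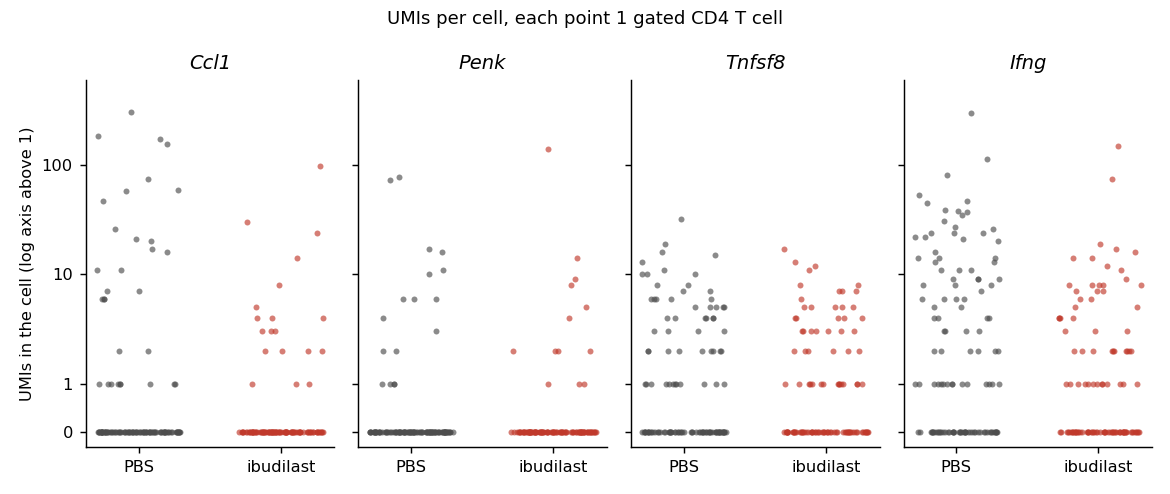
UMIs of 4 genes in each member, 1 point a cell, on an axis that is logarithmic above 1 UMI. For Ccl1 the highest PBS cell has 304 UMIs and the highest ibudilast cell 97; for Penk a single ibudilast cell stands at 141.

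The promoters of Ccl1 and of Lgals7, a chemokine and a galectin gene, are shown as examples of genes that were low in the ibudilast library and held the motif below. Lgals7 was also higher in Ccl1+ members, a set that Ccl1 itself defines. They are RefSeq sequences of build GRCm38.p6 and give the 250 bases before the RefSeq start, 5′ to 3′ on the gene's strand. Both stretches lie inside the gene's span in GENCODE M21, the source of the gene positions, so these annotations differ on the start. Capitals mark GGAAAA, the core bound by NFAT factors downstream of T cell receptor signalling, or its reverse complement TTTTCC.
Ccl1 (chr11:82179813-82180062, minus strand): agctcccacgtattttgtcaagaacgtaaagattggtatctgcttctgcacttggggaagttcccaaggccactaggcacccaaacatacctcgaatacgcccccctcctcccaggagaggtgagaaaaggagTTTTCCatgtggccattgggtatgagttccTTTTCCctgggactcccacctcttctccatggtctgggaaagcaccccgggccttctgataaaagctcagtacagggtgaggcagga
Lgals7 (chr7:28864136-28864385, plus strand): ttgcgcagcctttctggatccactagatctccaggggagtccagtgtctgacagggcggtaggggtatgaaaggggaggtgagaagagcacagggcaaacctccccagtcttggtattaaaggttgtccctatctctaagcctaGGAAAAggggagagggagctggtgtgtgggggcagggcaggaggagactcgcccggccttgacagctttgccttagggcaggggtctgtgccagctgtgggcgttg
Ccl1 held 2 matches and Lgals7 1. GGAAAA was searched on both strands, in 300 bases that also take in the 50 after the start. Of other lower genes looked up, Il21 and Ccl3 held it, but Tnfsf8, Nrgn, Igfbp7, Ifng, Csf2 and Tnfsf11 did not. Isg15 and Ifit3, which were higher in the ibudilast library, also held it. Among the promoters of the 12 genes ranked lower, 5 of 12 held it (11 genes have an entry), against 7673 of 32851 promoters of all genes (23.4%). The type I interferon list below, which was higher in the ibudilast library, held it in 8 of 19 promoters (42.1%), close to the 41.7% of the lower genes. TGACGTCA, the full cAMP response element, was in 0 of these 12 promoters, and in 588 of 32851 (1.79%). A match is only a run of letters.

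The levels across other T cell gates show where Ccl1 and its companions were found. The Lef1+ CD4 gate held only 14 cells in each library. Over the PBS library, Ccl1 stood at 1129.5 CPM in members, 1863 in the dividing CD4 cells, 703 in Lef1+ CD4 cells, 271 in CD8 cells and 9.38 in Foxp3+ cells. In the ibudilast library the same gates had 194, 2222, 57.7, 33.5 and 73.2 CPM. The dividing CD4 cells therefore did not share the members' lower Ccl1 level, although they were only 38 and 15 cells, of which 8 and 8 had Ccl1, and 1 PBS cell alone held 810 UMIs. Ifng, the defining cytokine of type 1 helper cells, followed the same pattern: 1208 and 441 CPM in members and 942 and 1642 CPM in dividing CD4 cells, with 525 and 536 CPM in CD8 cells. Penk was 478 and 1129 CPM in dividing CD4 cells and 37.5 and 238 CPM in Foxp3+ cells. Tnfsf8 set the 3 CD4 gates without Foxp3 apart from the rest, at 266 and 175 CPM in members, 221 and 169.7 CPM in dividing CD4 cells and 228 and 181 CPM in Lef1+ CD4 cells, against 30.5 and 37.8 CPM in Foxp3+ cells and 21.1 and 27.1 CPM in CD8 cells.

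**Figure D3:**
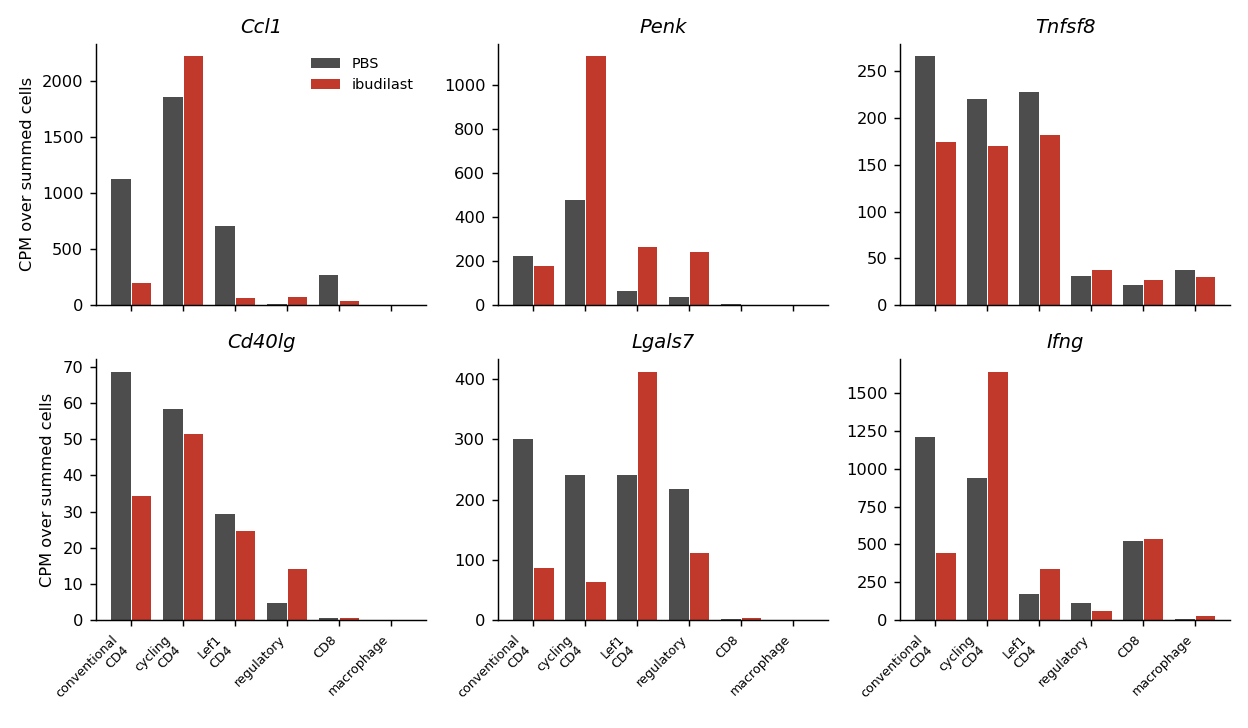
Bars give CPM over the summed cells of each gate (grey PBS, red ibudilast; each panel has its own axis from 0); conventional CD4 are the members. Ccl1 and Ifng are lower in the ibudilast bar of the members and higher in that of the dividing CD4 cells, and Tnfsf8 is highest in the 3 CD4 gates without Foxp3.

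Other genes were higher in members than in the Foxp3+, CD8 and Lef1+ gates of both libraries; the gates differ by the rule, so this is a description. Sostdc1, an extracellular BMP antagonist known from follicular helper cells, had 48.2 and 31.5 CPM in 5 and 8 cells. Ccr7, the lymph node homing receptor, had 61.2 and 167 CPM, which was 2.61 and 6.42 times the highest of the other 3 gates. Ccr7 is also a gene of migratory dendritic cells. Ramp3, a receptor activity modifying protein, had 51 and 72.2 CPM, and Gpm6b, a membrane glycoprotein, 64 and 62.9 CPM. Spp1 (osteopontin) had 744 and 567 CPM, but macrophages had 794 and 732 CPM. Nrgn, a calmodulin-binding protein best known from neurons, had 314 and 114 CPM and was 2.68 and 1.71 times the highest of the other gates. Dusp16, Ece1, Baz1a, Ankrd46, Ccl1 and Htra2 completed the 12.

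Members with 2 or more Ccl1 UMIs (22 and 16 cells) were set beside members with 0 (90 and 92 cells), and the genes named were chosen for lying on the same side in both libraries. The Ccl1+ cells were deeper, with a median 13294 against 5852 UMIs with PBS and 9572 against 7950 with ibudilast; CPM values take out the total but not all that goes with depth. Of 2670 genes compared, 49 (1.84%) were past 1.5-fold higher in both libraries and 87 (3.26%) past 1.5-fold lower in both. Lgals7, a galectin, was 4.42 with PBS and 5.15 with ibudilast, as a ratio of Ccl1+ to Ccl1-negative members. Nrgn was 4.74 and 3.3, and Igfbp7, a secreted binding protein of insulin-like growth factors, 4.65 and 2.86. Penk was 2.14 and 15.7, but 1 cell held 78 of 116 Penk UMIs of the Ccl1+ members with PBS and 141 of 147 with ibudilast. Without that cell its ratios were 0.733 and 0.672, below 1. Tnfsf8 (1.74 and 2.14), the tetraspanin Cd82 (2.15 and 2.16), the costimulatory receptor Cd226 (2.14 and 2.65), Nr4a2, a receptor-induced nuclear factor (2.19 and 2.46), Thy1 (1.56 and 1.95) and Nrp1 (1.75 and 2.01) were on the same side. Further ligands outside that ranking followed: Tnfsf11, the ligand RANKL (3.81 and 3.71), and Csf2, the growth factor GM-CSF (14.9 and 3.07). Other receptor-induced genes did not share the side of Nr4a2. Nr4a1 was lower in Ccl1+ members, at 0.467 and 0.41, and so was Irf4, at 0.789 and 0.344. Nr4a3 was at 1.75 and 1.17, and Egr2 (1.13 and 0.229) and Egr3 (6.77 and 0) kept no side. The intervals of Irf4, Nr4a3 and Egr2 included 1 in both libraries.

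Ccl5, Gzmb, Il10 and Ikzf2 lay mostly in the Ccl1-negative members. Ccl5, a chemokine of effector T cells, was 0.0444 and 0.102 as the ratio of Ccl1+ to Ccl1-negative members. Gzmb, the cytotoxic protease granzyme B, was 0.00744 and 0.0737. Ikzf2 was 0.322 and 0.461, and Klf2, a factor of quiescence and recirculation, 0.189 and 0.454. All 125 and 103 Il10 UMIs lay in cells without Ccl1. Fabp5 and Mmp12, genes that macrophages also express, were on this side as well, at 0.338 and 0.396 and 0.194 and 0.138. In the members under 1%, 3 of the 30 ranked genes changed side in 1 library: Mmp12 to 4.14 with ibudilast (2 and 2 UMIs), Ier3 to 1.92 with PBS (6 and 6 UMIs) and Ccl12 to 0.385 with PBS (5 and 25 UMIs). For other ranked genes named here the interval under 1% included 1. This held for Thy1, Fabp5 and Mmp12 in both libraries and for Tnfsf8 with PBS (1.3, 0.929 to 1.8). With ibudilast it held for Ikzf2 (0.75, 0.478 to 1.14), Nr4a2 (1.07, 0.424 to 2.37) and Nrp1 (1.57, 0.708 to 3.24). Ifng did not keep a side: it was 3.53 with PBS and 0.797 with ibudilast.

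**Figure D4:**
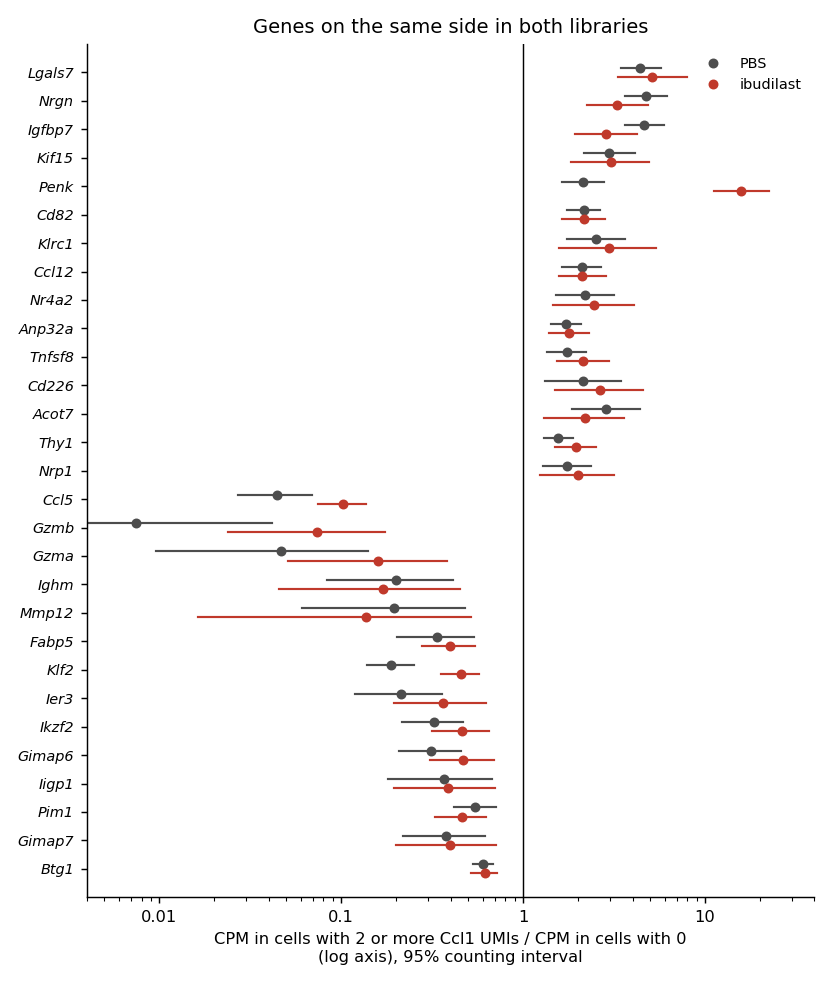
Ratio of CPM in members with 2 or more Ccl1 UMIs to members with 0 (log axis) in each library, with 95% counting intervals, for the genes ranked by the interval bound nearest to 1 in both libraries. Lgals7, Nrgn and Igfbp7 lie to the right of 1 in both libraries and Ccl5, Gzmb and Ikzf2 to the left; Penk lies to the right through 1 cell in each library.

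Between the libraries, 3097 genes had at least 100 UMIs over all members and were compared. Of these, 245 (7.91%) had a ratio of at least 1.5 in the ibudilast library and 127 (4.1%) one of at most 0.667, and the median log2 ratio was -0.03. Many of the higher genes are macrophage genes: 146 of the 245 (59.6%) were also higher in macrophages than in members in both libraries, against 781 of all 3097 (25.2%) and 11 of the 127 lower genes (8.66%). Of 11 macrophage markers compared, 5 were past 1.5-fold higher, and the list summed to 12662 and 16930.1 CPM. It ranged over cells from 905 to 49062 CPM and from 1179 to 88196 CPM, and 0 of its 12 genes were at 0. Of 11 dendritic-cell markers 6 were compared, and 2, Fscn1 and Ccl22, were past 1.5-fold higher and 0 lower. Under 1%, 0 of 4 dendritic-cell markers compared were higher and 1 was lower. Of 10 NK markers 4 were compared, with 0 higher and 1 lower, and of 8 B cell markers 2, with 1 higher. Monocyte markers summed to 1133 and 2469.6 CPM, with 4 of 4 compared past 1.5-fold higher. In the members under 1%, 0 of 7 macrophage markers compared were past 1.5-fold, and the list summed to 3308 and 3371 CPM. There 1126 genes were compared, of which 34 (3.02%) were higher and 54 (4.8%) lower; in the members at 1% or more it was 169 (8.27%) and 107 (5.24%) of 2043. Of the 245 higher genes 33 could be compared in the members under 1% and 10 were past 1.5-fold, and of the 127 lower genes 48 could be and 25 were.

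The 12 genes ranked highest by the interval bound nearest to 1 were partly of this kind: Cd40, Cebpa, Gpr141, Ifit2, Ogfrl1 and Syngr1 were higher in macrophages than in members in both libraries. Gpnmb, a glycoprotein of lipid-laden macrophages, had 23 and 204 UMIs, a ratio of 8.85 (5.74 to 14.3), with 21.3 and 189 CPM in members and 107 and 162 CPM in macrophages. Cd40, Cebpa, Gpr141, Arl5c, Syngr1, Ogfrl1 and Igkc, the last an antibody light chain of B cells, had ratios between 3.77 and 5.16. Fabp5, a fatty acid carrier, had 164 and 610 UMIs, a ratio of 3.71 and of 2.04 under 1%. Mxd1, a transcriptional repressor that opposes Myc, had 52 and 185 UMIs, with 3.55 and 2.46. Ifit2 and Isg15, both induced by type I interferon, completed the 12.

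Type I interferon response genes were higher in the ibudilast library, also in the cleanest members. Of 21 listed genes 19 were compared, and 11 had a ratio past 1.5, 0 below 0.667, with a median log2 ratio of 0.88. Over all genes compared, 7.91% were higher and 4.1% lower. In the members under 1%, 6 of 10 were past 1.5-fold higher, with a median of 0.63 against -0.03 over all genes compared there. The list's median was 0.43 with cells thinned before gating. Isg15, a ubiquitin-like protein, had 287 and 872 UMIs, 266 and 807 CPM, in 82 and 89 cells; its ratio was 3.03 (2.65 to 3.48), 2.04 (1.5 to 2.79) under 1%. Ifit3, an RNA-response protein of the IFIT family, had 135 and 372 UMIs, a ratio of 2.75 (2.25 to 3.37) and 3.85 (2.4 to 6.36) under 1%. Among members of 3000 UMIs, Isg15 was found in 46.6% and 59.2% and Ifit3 in 19% and 39.8%, so more cells carried them in the ibudilast library. Thinned macrophages held Isg15 in 61.1% and 69.6% and Ifit3 in 33.2% and 41.9%, and stood at 509 and 785 CPM of Isg15 and 216 and 296 CPM of Ifit3, while members had 125 and 344 CPM of Ifit3. Usp18, which removes ISG15 from proteins, Irf7, a master interferon factor, and Bst2, the antiviral tetherin, had ratios of 2.41, 2.08 and 1.66. The same list summed to 9223 and 12576 CPM in members, and it was also higher in the ibudilast library in Foxp3+ cells (11805 and 14168), CD8 cells (6888 and 8729) and macrophages (6662 and 7959). Of 16 interferon-gamma response genes compared, 5 (Irf1, Irf8, Gbp2, Iigp1 and Irgm1) were past 1.5-fold higher and 0 lower, with a median of 0.48 (0.30 with 2 of 8 higher under 1%).

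The promoters of Isg15 and Ifit3 are shown because both genes were higher in both sets of members and hold the response motif that interferon factors are known to bind. Capitals mark GAAA followed after any 2 bases by another GAAA, the core of the interferon-stimulated response element, or its reverse complement, in the 250 bases before the RefSeq start (GRCm38.p6), and this motif was added after the values were seen.
Isg15 (chr4:156200819-156201068, minus strand): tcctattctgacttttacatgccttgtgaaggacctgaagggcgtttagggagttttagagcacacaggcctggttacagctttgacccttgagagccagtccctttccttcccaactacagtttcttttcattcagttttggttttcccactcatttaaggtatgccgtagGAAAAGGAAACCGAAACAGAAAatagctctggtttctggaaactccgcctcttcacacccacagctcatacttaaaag
Ifit3 (chr19:34583279-34583528, plus strand): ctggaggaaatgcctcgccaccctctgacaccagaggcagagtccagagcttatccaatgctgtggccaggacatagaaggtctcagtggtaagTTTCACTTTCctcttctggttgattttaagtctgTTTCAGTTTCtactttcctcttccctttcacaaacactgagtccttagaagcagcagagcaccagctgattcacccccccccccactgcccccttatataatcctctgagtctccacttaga
Isg15 held 3 matches that overlap each other, and Ifit3 held 2. Searched on both strands in the 300-base window, 9 of 19 promoters of the type I interferon list (16 genes) held the motif, against 1131 of 32851 promoters of all genes (3.44%).

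Ifng and 4 chemokine genes had lower summed levels in the ibudilast library. Of 7 helper cytokine genes compared, Ifng and Areg, a growth factor of the EGF family, were past 1.5-fold lower and 0 higher, with a median of -0.31. In the members under 1% it was 2 higher and 1 lower of 4, with a median of 0.29. Areg had 73 and 37 UMIs in 5 and 13 cells, so more ibudilast cells held it, and 1 PBS cell had 36 of its UMIs. Of 8 chemokine genes compared, 4 (Ccl1, Ccl3, Ccl4 and Xcl1) were past 1.5-fold lower and 2 (Ccl5 and Ccl22) higher. Over all genes compared, 4.1% were lower and 7.91% higher. Ccl22 is also on the dendritic-cell marker list. Ifng had 1303 and 477 UMIs in 72 and 52 cells, a ratio of 0.365 (0.328 to 0.406), 0.353 under 1% and 0.761 when NK receptor cells were left out as well; it was 0.945 when cells were thinned before gating. Il21, a cytokine that helps B cells and CD8 T cells, had 74 and 19 UMIs in 29 and 11 cells, a ratio of 0.256 (0.146 to 0.429) and 0.0886 under 1%. Csf2 had 67 and 19 UMIs, like Il21 under the 100-UMI minimum, with 0.283 and 0.394, but 1.94 (0.558 to 7.52), which includes 1, in members under 1% without NK receptor cells.

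Some chemokines of cytotoxic cells had other ratios once members with macrophage RNA and then those with NK receptor UMIs were left out. Ccl3 had 0.393 over all members, 0.383 under 1% and 1.34 (1.0 to 1.79) in members under 1% without a UMI of the 6 NK receptor genes. Ccl4 had 0.515, 0.675 and 2.28 (1.92 to 2.7) in these sets. In the last set, 30 (3.81%) of 787 genes compared were past 1.5-fold higher and 38 (4.83%) lower. Xcl1, which attracts cross-presenting dendritic cells, had 0.368, 0.12 and 1.75 (0.691 to 4.63), the last from 9 and 13 UMIs. Klrc1, an NKG2 receptor, had 0.406, 0.839 and 1.06 (0.623 to 1.81), so the last intervals of Xcl1 and Klrc1 include 1. Klre1 and Klrh1, further lectin-like NK receptors, had 100 and 17 UMIs and 186 and 46 UMIs. That set holds 46 and 43 cells and lacks only the 6 genes named above: it still had 33 and 29 Klrc1 UMIs. Ccl5 kept its side, at 2.17, 3.72 and 2.87 in the same 3 sets. Lgals7, Nrgn and Igfbp7 also kept theirs, at 0.286, 0.362 and 0.384 over all members and 0.474, 0.383 and 0.478 in the last set.

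Of 12 TNF-family ligands listed, 7 were compared, and 3 were past 1.5-fold lower and 0 higher, beside 4.1% and 7.91% of all genes. The median log2 ratio was -0.55. It was -0.25 with 3 CD3 and 2 Cd4 UMIs required and -0.21 with cells thinned before gating, and under 1% 0 of 2 compared were past 1.5-fold. The lower ones were Tnfsf8, given above, Tnfsf11 with 90 and 48 UMIs and a ratio of 0.532 (0.367 to 0.764), and Cd40lg with 74 and 37 UMIs and 0.499 (0.327 to 0.75). Cd40lg was in 40 and 19 cells, and at 3000 UMIs a cell in 16.4% and 9.71% of members. It was in 0 macrophages at that depth, which allows a share of up to 0.10% and 0.251%. Its interval in the members under 1% included 1, at 0.708 (0.399 to 1.22), and in the members with no Ikzf2 or Il2ra UMI the ratio turned to 1.56. Of 8 receptors of the TNF-receptor and CD28 families, 0 passed 1.5-fold either way, and Icos had a ratio of 1.01.

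**Figure D5:**
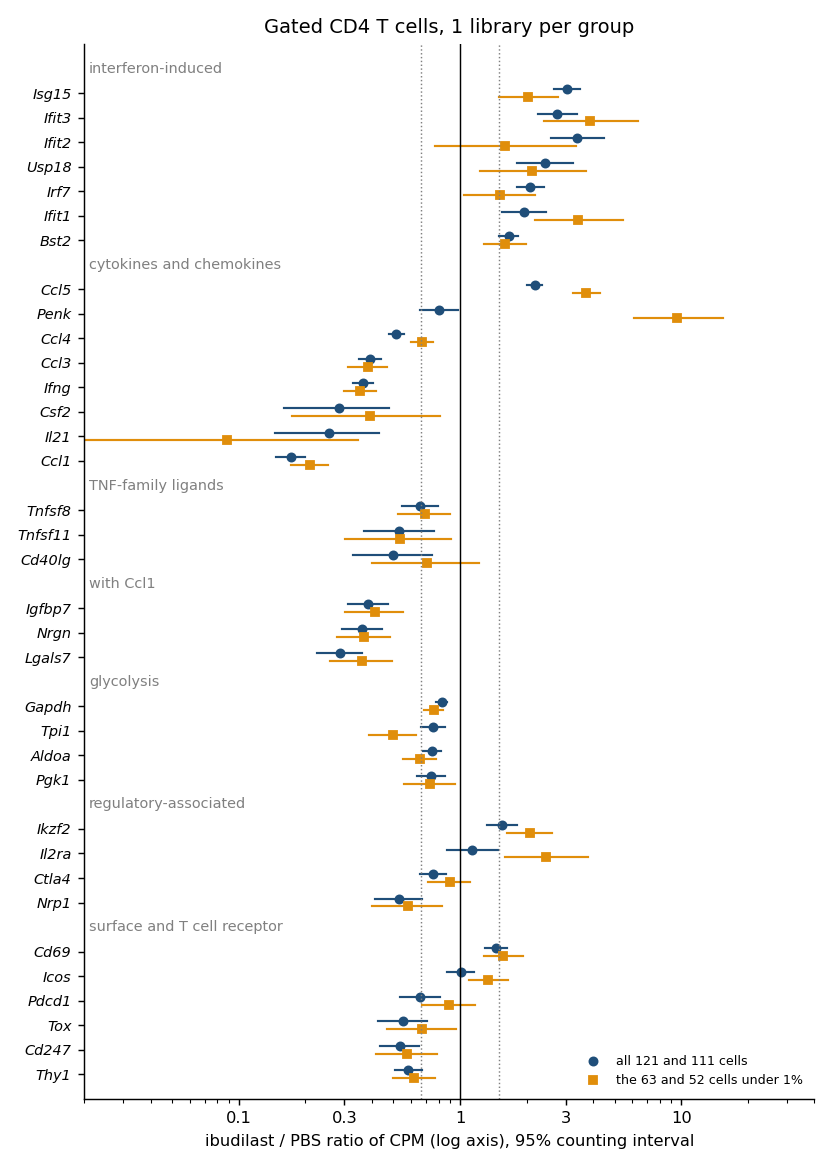
Ratio of ibudilast to PBS CPM (log axis) with 95% counting intervals, over all members (blue circles) and over members under 1% of macrophage and dendritic-cell markers (orange squares); dotted lines stand at 0.667 and 1.5. Interferon genes lie to the right of 1 in both sets and Ccl1, Il21, Ifng, Lgals7, Nrgn and Igfbp7 to the left, while Penk changes side; the bar of Il21 runs past the left edge.

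Over all members, the lists of receptor signalling and dysfunction below held a larger share of lower genes than the 4.1% of all genes compared. Under 1%, 3 of 11 T cell receptor complex genes and 0 of 9 checkpoint genes (1 higher) were lower, beside 4.8% of all genes. Of 11 genes of the T cell receptor complex compared (3 more are in the rule), Cd247, the CD3 zeta chain, and Thy1 were past 1.5-fold lower, at 0.534 and 0.585, and the list's median was -0.43, -0.03 under 1%. Of 11 checkpoint genes compared, Pdcd1, Lag3 and Tox were past 1.5-fold lower and 0 higher, with ratios of 0.662, 0.651 and 0.55, and 0.889, 0.88 and 0.674 under 1%. Of 7 follicular helper genes 4 were lower (Pdcd1, Sh2d1a, Slamf6 and Tox, of which 2 are also in the checkpoint list), and 0 of 6 were in the members under 1%. Of 12 cytotoxic genes 6 were lower and 1 higher over all members, but 2 lower and 3 higher of 10 under 1%, where Gzmb had a ratio of 2.83 beside 1.09 over all members.

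The regulatory-associated genes Ikzf2 and Il2ra and the quiescence gene Klf2 had higher summed levels in the ibudilast library among the members under 1%. Ikzf2 had 261 and 405 UMIs, a ratio of 1.55 (1.32 to 1.82) and 2.06 (1.63 to 2.62) under 1%, but 1.0 with all members thinned to 3000 UMIs. Il2ra had 1.13 over all members and 2.44 (1.59 to 3.79) under 1%. Of the members under 1% thinned to 3000 UMIs, 43.1% and 42.6% held Ikzf2, a similar share, and 17.2% and 25.5% held Il2ra. Il10 had 125 and 103 UMIs in 17 and 18 cells, with 0.822 and 1.81. Nrp1 and Ctla4 of the regulatory list were not higher, at 0.529 and 0.58 and at 0.753 and 0.897. Of 10 genes of that list compared, 1 was higher and 2 lower, beside 7.91% and 4.1% of all genes, with a median of -0.17. Under 1% it was 2 higher and 1 lower of 8, beside 3.02% and 4.8% of all genes, with a median of 0.24. Klf2 had 640 and 958 UMIs, a ratio of 1.49 (1.35 to 1.65) and 2.48 (2.03 to 3.03) under 1%, and Cd69, which opposes the exit of T cells from tissue, 1.45 (1.29 to 1.64) and 1.57 (1.29 to 1.92).

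Genes of a joint glycolysis and hypoxia list were lower in the ibudilast library. All 16 compared of 25 had ratios below 1, with a median log2 ratio of -0.41 (-0.47 for 11 under 1%). Only 2, Hk1 and P4ha1, were at or below 0.667, beside 4.1% of all genes compared. Under 1%, 4 of 11 were, and the list summed to 8084 and 5632 CPM. Its sum was also lower in the ibudilast library in Foxp3+ cells (7624 and 6545 CPM), CD8 cells (5469 and 5306) and macrophages (6409 and 5712). Aldoa, the aldolase of glycolysis, had 989 and 739 UMIs and 0.746 (0.677 to 0.821), Tpi1, triosephosphate isomerase, 0.756 and 0.498 under 1%, and Gapdh 0.825 and 0.76. Respiratory chain genes differed less, with 0 of 22 past 1.5-fold and a median of -0.17. Of 19 dissociation stress genes 3 (Jun, Hspa1a and Zfp36) were higher, beside 7.91% of all genes compared. The list's median was 0.22, which stands beside the values of early response genes such as Cd69.

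RNA of cyclic nucleotide phosphodiesterases, some of which ibudilast inhibits, was sparse in these cells. Pde4b had 38 and 41 UMIs and Pde4d 37 and 20 UMIs, a ratio of 0.539 (0.297 to 0.954), and Pde7a had 45 and 37 UMIs and Pde3b 16 and 11 UMIs, all too few for the 100-UMI minimum. Mif was abundant, with 736 and 577 UMIs and a ratio of 0.782 (0.70 to 0.873), 0.567 under 1%. Of 14 cAMP and CREB response genes compared, Rgs2 was higher and Nr4a2 and Areg lower, beside 7.91% and 4.1% of all genes. The list's median was -0.13, beside -0.03 over all genes.

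Type 1 and type 2 lineage factors were the ones found most, and some members held both. Gata3, the factor of type 2 cells, had a UMI in 43 and 42 members and Tbx21, that of type 1 cells, in 21 and 18, with 6 and 7 cells holding both. Bcl6, of follicular helper cells, had one in 9 and 12. Variable segments of the receptor, read only by chance from 3' ends, were found in 14 and 12 members for the beta chain and in 25 and 15 for the alpha chain, too few for a statement on clones. Trav16 was found in 6 PBS members, and Trbv19 in 2 PBS and 4 ibudilast members.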

How the data were processed

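Brain CD45+ cells of 1 PBS and 1 ibudilast library were measured with 10x 3' V3.1 chemistry. The values are the deposited whole-number UMI counts per gene and barcode; per the file headers they come from Cell Ranger 6.1.1, and per the submitters' processing notes the build is mm10. The libraries hold 8968 and 8483 barcodes with 119113794 and 82196922 UMIs over 31253 genes; 8155 and 7079 barcodes passed the filter, with median depths of 12234 and 8267 UMIs. Dose and schedule are per the labels' protocols.

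The members, gene lists and marker lists were chosen with earlier results of these data known. Counts were summed over members per library and scaled to CPM (Python 3.11.15, scipy 1.17.1). Ratios have exact conditional binomial 95% intervals and shares Clopper-Pearson ones; both cover counting error only. Genes with 100 UMIs over both libraries were compared and counted past 1.5-fold; list medians use log2 ratios with 0.5 UMI added. Named genes are the 12 highest and 12 lowest by the interval bound nearest to 1 (beyond 1.25-fold, a UMI in 10% of cells of the higher library), up to 6 of each list, and 12 leading genes across gates. Genes named from the Ccl1 ranking, other list members, and the overlap of Ccl1 with Il10 were chosen after their values were seen. Thinning to 3000 UMIs left out 5 and 8 members. Scrublet (scanpy 1.11.5) marked 0 cells in either library on its own threshold and so did not work as a caller; its 6% highest scores hold 5 and 12 members. The ratio calculation was tested on simulated counts. Alternatives were the cell filter, gate, depth, scaling, cell weights, highest cells and count minimum; those on other-cell markers, NK receptors and dividing cells were added after seeing the data. Gene positions are from GENCODE M21, promoters from RefSeq (13 of 16 genes looked up had an entry). Some genes of the lists are not reported here.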

Additional observations from a re-analysis of the deposited data

Results flagged for a closer look

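For 5 genes the members and another gate of the same libraries stood on opposite sides of 1. These differences between gates were not tested, since each group has 1 library. Ccl1 had a ratio of ibudilast to PBS of 0.172 in members and 7.8 in Foxp3+ cells, where it was at 9.38 and 73.2 CPM from 4 and 31 UMIs; 1 ibudilast cell held 27 of these. Nrgn had 0.362 in members and 2.08 in CD8 cells, at 32 and 66.6 CPM from 65 and 270 UMIs. Igfbp7 had 0.384 and 4.51 in CD8 cells, at 1.97 and 8.88 CPM from 4 and 36 UMIs. Cxcl2, a neutrophil-attracting chemokine that macrophages also make, had 0.446 and 2.16 in Foxp3+ cells, at 49.2 and 106 CPM from 21 and 45 UMIs. Igkc had 3.88 and 0.403 in Foxp3+ cells, at 106 and 42.5 CPM from 45 and 18 UMIs.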

How the results depend on the processing

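No paired analysis was possible because each group has 1 library. The ratio of the members' share of filtered cells lay between 0.91 and 1.08 under 8 alternatives, and that of CD3+ cells between 0.651 and 0.793; with no C1qa or C1qb UMI allowed, 2 and 9 cells were left and the ratios were 5.18 and 3.82. The counts of genes past 1.5-fold, 245 higher and 127 lower, moved more. They were 98 higher and 77 lower with 3 CD3 and 2 Cd4 UMIs required, 6 higher and 23 lower with no C1q UMI, 74 higher and 63 lower with no Ikzf2 or Il2ra UMI, 137 higher and 66 lower with cells thinned before gating, 59 higher and 49 lower with members thinned, 34 higher and 54 lower in members under 1%, and 30 higher and 38 lower when NK receptor cells were left out too. Minimums of 20, 50 and 300 UMIs gave 971 higher and 799 lower, 474 higher and 308 lower, and 76 higher and 33 lower. Fewer genes reach 100 UMIs where cells are fewer or shallower. Scaling by the median gene ratio (0.981), equal cell weights, the stricter cell filter, the highest doublet scores, the 5 highest cells and dividing cells moved neither count by 1.5 times.

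Some values changed side, and the cause was not tested. With cells thinned before gating, medians became 0.29 for chemokines, 0.0352 for checkpoint genes and 0.00447 for cytotoxic genes, and ratios 1.11 for Xcl1, 1.23 for Cxcl2, 0.356 for Igkc, 1.44 for Ccl3, 1.22 for Ccl4 and 1.01 for Pdcd1; that gate shares only 80 of 113 and 63 of 89 cells with the members. In members under 1% without NK receptor UMIs, medians were 0.803 for chemokines, 0.0739 for follicular helper genes and 1.48 for cytotoxic genes, and ratios 1.75 for Xcl1, 1.06 for Klrc1, 1.34 for Ccl3, 2.28 for Ccl4, 1.94 for Csf2 and 1.05 for Pdcd1. Cd40lg was 1.56 without Ikzf2 or Il2ra, and Cxcl2 1.06 without its 5 highest cells. In the 2 and 9 cells without C1q, Isg15 was 0.132, Ccl4 4.46 and Tox 3.69. Alternatives on other-cell markers, NK receptors, dividing cells and the highest Penk cell were chosen after seeing the data.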

Other observations

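Of 11 chemokine receptor and adhesion genes compared in members, 4 were past 1.5-fold higher and 0 lower, against 7.91% and 4.1% of all genes compared. The median log2 ratio was 0.23, but -0.18 with members thinned to 3000 UMIs and -0.46 without Ikzf2 or Il2ra UMIs. Ccr7, also a gene of migratory dendritic cells, had 66 and 180 UMIs in 16 and 13 cells, a ratio of 2.72 (2.04 to 3.66). Cxcr4, the receptor of CXCL12, had 44 and 86 UMIs and 1.95 (1.34 to 2.87). Ccr2, which monocytes also express, had 1.5. In members under 1%, 1 of 5 was past 1.5-fold higher. Of 12 tissue residency genes compared, Rgs2 was higher and 0 lower, with a median log2 ratio of 0.01. Of 13 genes induced early by the T cell receptor, Irf8 was higher and Nr4a2 lower, with a median of -0.14.

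RNA of other sources also differed between the libraries. Red cell markers summed to 2.78 and 78.6 CPM over the members and oligodendrocyte markers to 40.8 and 107 CPM. Markers of GL261 cells differed less, at 831 and 925 CPM. Their part in the ratios was not tested.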
